A study of Mus musculus with 22 samples.

Results

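The 3 cell lines 4T07, 4T1 and 67NR come from 1 spontaneous mammary tumour of a BALB/cfC3H mouse (the label of 4T1 gives the strain as BALB/cfCH), and their labels describe different abilities to spread. 4T07 reaches the lung but does not form colonies there, 4T1 is fully metastatic, and 67NR does not leave the primary tumour. Each line also carries a drug selection. 4T07 was transfected for resistance to thioguanine and ouabain, 4T1 was picked as a spontaneous thioguanine-resistant variant, and 67NR was transfected for resistance to geneticin, so spread and selection differ together and cannot be told apart. Each line was measured on 1 exon array, among 22 mouse mammary lines in the series (12 from engineered mice, 8 from spontaneous tumours and 2 immortalized). With 1 array per line there is no replicate error, no difference between these lines has a test, and every value here is a description of 3 arrays.

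Genes were taken where both 4T07 and 4T1 differed from 67NR by at least 2 log2 units (4-fold) in the same direction, and where the higher value of each difference lay above the median of its own array. Of 14860 genes, 256 met this rule. 151 were higher in 4T07 and 4T1 (1.02% of all genes) and 105 were lower (0.707%). Taken alone, 4T07 had 190 higher genes (1.28%) and 131 lower (0.882%) against 67NR, and 4T1 had 257 higher (1.73%) and 195 lower (1.31%). The deposited values are taken as log2 array values, and the array medians were 6.83 in 4T07, 6.83 in 4T1 and 6.83 in 67NR. No detection call or background level was used here, so the size of a difference that ends far under the median is uncertain. Among the 151 higher genes, 67NR lay under its array median at 115, and among the 105 lower genes both 4T07 and 4T1 lay under theirs at 61. When every value under the array median was raised to that median first, 95 higher and 69 lower genes remained. Since the same 67NR array enters both differences, their agreement is not evidence of its own, and an error of that 1 array would appear in both.

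Carcinoma cells of the breast hold to each other through E-cadherin, desmosomes and tight junctions, and they line these contacts with keratin filaments. In an epithelial-mesenchymal transition such contacts are dismantled, E-cadherin gives way to N-cadherin, and transcriptional repressors of the Zeb, Snail and Twist families bind E-boxes in epithelial promoters. Amino acid shortage and other stresses act on a separate circuit, in which translation slows while the transcription factor Atf4 induces genes for amino acid uptake, synthesis and tRNA charging.

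**Figure D1:**
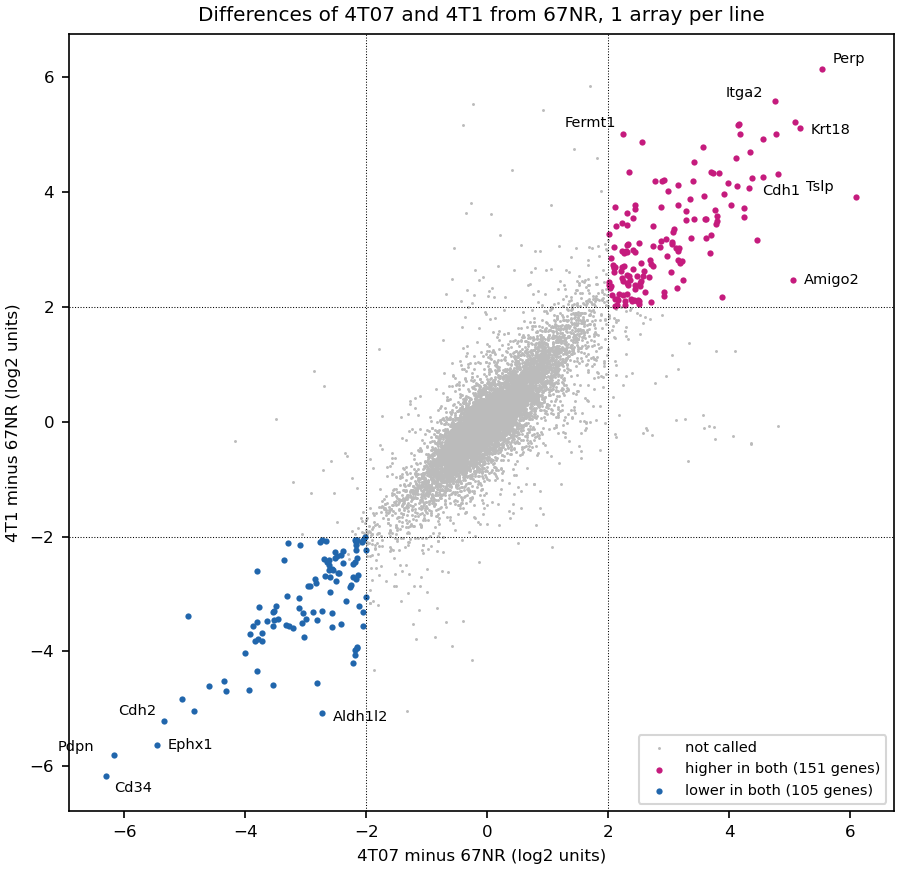
Difference of 4T07 from 67NR (horizontal) against difference of 4T1 from 67NR (vertical), in log2 units, 1 point per gene, with dotted lines at the threshold of 2 log2 units. The 151 genes higher in both lines reach 6.14 log2 units at Perp on the vertical axis, and the 105 lower genes reach -6.30 at Cd34 on the horizontal axis.

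The 2 spreading lines resembled each other more than either resembled 67NR. Over 16755 probe sets with values centred per probe set, 4T07 correlated with 4T1 at 0.45 and with 67NR at 0.04, and 4T1 correlated with 67NR at -0.16 (a description, since all points of a correlation share the same arrays). For 4T07 the closest of the 21 other lines was 4T1, and the reverse also held, while 67NR ranked at place 7 for 4T07 and at place 16 for 4T1. At 127 of the 151 higher genes and 88 of the 105 lower genes, 4T07 and 4T1 lay within 1 log2 unit of each other. The same share over all genes was not counted. The rule had already picked genes at which both lines differed from 67NR in the same direction. These counts therefore describe the genes and are no sign of likeness. The 2 lines differed by at least 2 log2 units at 6 of the 256 genes, beside 97 of all 14860 genes. Of the 6, 4T1 was above 4T07 for Lcn2 (2.31), Gpa33 (2.01) and Fermt1 (2.77), and below it for Tslp (-2.19), Amigo2 (-2.59) and Aldh1l2 (-2.34).

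Of the gene lists read here, that of epithelial adhesion held the most higher genes. The lists were chosen with earlier results of these data known, so their counts are not independent of the data. Of the 151 higher genes, 33 were in any list. Of 37 measured genes in a list of epithelial adhesion and identity, 13 met the rule as higher (35.1%, against 1.02% of all genes) and 0 as lower. The list's median difference from 67NR was 1.17 log2 units in 4T07 and 2.02 in 4T1, beside -0.15 and -0.11 over all genes. Of the 37 genes, 28 were above 67NR in both lines, as 4092 of all 14860 genes were, and 3 were below it in both. Perp, a membrane protein needed for desmosomes, read 10.86 in 4T07 and 11.46 in 4T1, against 5.32 in 67NR. The 2 spreading lines were far above 67NR and near the median of the 19 lines outside this family (11.26), and 67NR lay below the lowest of those 19 (5.85).

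Krt18, a keratin of simple epithelia, read 11.32 in 4T07 and 11.27 in 4T1, against 6.16 in 67NR, where the lowest of the 19 other lines read 6.20. Cdh1, which encodes E-cadherin, read 11.02 in 4T07 and 10.88 in 4T1, against 6.64 in 67NR. The other lines divided over this gene too, with values from 6.28 to 11.82 and 9 of 19 above their array median, so 67NR was not alone in its low Cdh1. Esrp1, a regulator of epithelial splicing, read 9.55 in 4T07 and 9.53 in 4T1, against 5.42 in 67NR, and it was above the array median in 7 of the 19 other lines. Epcam, an epithelial adhesion molecule, read 9.63 in 4T07 and 10.84 in 4T1, against 6.07 in 67NR. It too was above the median in 7 of the 19 others, with 6.13 as their middle value.

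Further members of the list belong to junctions. Jup, the plakoglobin shared by desmosomes and adherens junctions, read 10.26 in 4T07 and 10.05 in 4T1, against 6.47 in 67NR. Pkp2, a desmosomal plaque protein, read 8.50 in 4T07 and 8.69 in 4T1, against 6.16 in 67NR. Both desmosomal genes were lower in 67NR than in every one of the 19 other lines, whose lowest values were 6.67 for Jup and 7.46 for Pkp2. The tight junction gene F11r showed the same position, with 10.30 in 4T07 and 9.89 in 4T1, against 6.69 in 67NR and 8.54 in the lowest other line. Cldn4, a claudin of tight junctions, read 10.04 in 4T07 and 11.35 in 4T1, against 7.16 in 67NR, and Ocln, which encodes occludin, read 7.91 and 8.03 in 4T07 and 4T1, against 5.22 in 67NR. For Ocln both spreading lines exceeded the highest of the 19 other lines (7.80). With values under the array median raised to it, the smaller difference was 1.08 for Ocln and 1.68 for Pkp2, and neither met the rule. Cldn3 fell just short of the rule, at 1.99 log2 units in 4T07 and 2.02 in 4T1 over 67NR.

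A membrane protease and its inhibitors were higher along with the junction genes. St14 encodes matriptase, a serine protease of epithelial surfaces, and read 9.36 in 4T07 and 10.23 in 4T1, against 6.49 in 67NR. Its inhibitors were higher as well. Spint1 read 8.75 in 4T07 and 9.52 in 4T1, against 6.44 in 67NR, and Spint2 read 10.27 in 4T07 and 10.45 in 4T1, against 6.29 in 67NR. The floor at the array median took Spint1 to 1.92, just short of the rule.

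The upstream 250 bases of 3 epithelial genes are shown because the letters CAGGTG, the E-box that Snail and Zeb repressors bind, occur in them. Sequences are from RefSeq, build GRCm38.p6, on the gene's strand, with CAGGTG or its reverse CACCTG in capitals. Epcam lies at chr17:87635729-87635978 on the plus strand, Krt18 at chr15:102027966-102028215 on the plus strand and Spint2 at chr7:29281978-29282227 on the minus strand.
Epcam: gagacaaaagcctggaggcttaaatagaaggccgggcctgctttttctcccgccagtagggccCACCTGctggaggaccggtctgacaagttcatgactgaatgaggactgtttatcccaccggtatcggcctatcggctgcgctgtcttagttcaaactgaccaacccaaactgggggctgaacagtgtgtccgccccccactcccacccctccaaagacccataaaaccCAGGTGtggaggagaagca
Krt18: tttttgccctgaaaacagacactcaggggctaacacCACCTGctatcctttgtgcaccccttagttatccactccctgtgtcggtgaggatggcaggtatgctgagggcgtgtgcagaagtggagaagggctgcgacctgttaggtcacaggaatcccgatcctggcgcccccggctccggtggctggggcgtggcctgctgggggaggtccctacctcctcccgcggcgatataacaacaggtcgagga
Spint2: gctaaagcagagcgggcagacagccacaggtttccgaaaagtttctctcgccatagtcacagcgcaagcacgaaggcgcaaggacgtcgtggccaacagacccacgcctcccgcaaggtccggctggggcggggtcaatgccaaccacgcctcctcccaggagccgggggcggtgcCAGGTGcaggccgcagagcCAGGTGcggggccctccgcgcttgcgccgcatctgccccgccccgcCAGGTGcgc
Of the 13 epithelial genes that met the rule, 8 were matched to a promoter sequence, and 5 of these held the letters on either strand. Of all 27025 promoters of that length, 17.1% held them. A match is a run of letters and not a shown binding site.

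Genes of the repressors were read as well. Zeb1 read 6.06 in 4T07 and 6.02 in 4T1, against 7.98 in 67NR, a difference just under the rule. Zeb2 read 9.10 in 4T07 and 8.63 in 4T1, against 9.07 in 67NR. Twist1 read 8.14 in 4T07 and 8.36 in 4T1, against 8.81 in 67NR. Snai1 was slightly higher in the spreading lines and Snai2 lower, with Snai1 at 8.31 in 4T07 and 8.17 in 4T1, against 7.62 in 67NR, and Snai2 at 9.02 in 4T07 and 7.05 in 4T1, against 9.68 in 67NR. None of these 5 repressor genes met the rule, although Snai2 passed the threshold in 4T1 alone.

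Of 15 measured mesenchymal regulators and filaments, 2 met the rule as lower (13.3%, against 0.707% of all genes) and 0 as higher. Cdh2, which encodes N-cadherin, read 5.99 in 4T07 and 6.13 in 4T1, against 11.34 in 67NR, near the highest of the 19 other lines (11.42). Each cadherin was thus high on one side and under the array median on the other, Cdh1 just under it in 67NR. Prrx1, a homeobox factor of mesenchyme, read 8.28 in 4T07 and 6.30 in 4T1, against 10.50 in 67NR. The filament gene Vim was high in all 3 lines, at 12.78 in 4T07 and 12.94 in 4T1, against 13.19 in 67NR, and the matrix gene Fn1 likewise read 11.88 and 12.10 in 4T07 and 4T1, against 12.52 in 67NR. The epithelial genes of 4T07 and 4T1 were thus measured beside high Vim and Fn1. Both genes were above the array median in all 19 other lines too, with medians of 12.91 for Vim and 11.66 for Fn1.

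**Figure D2:**
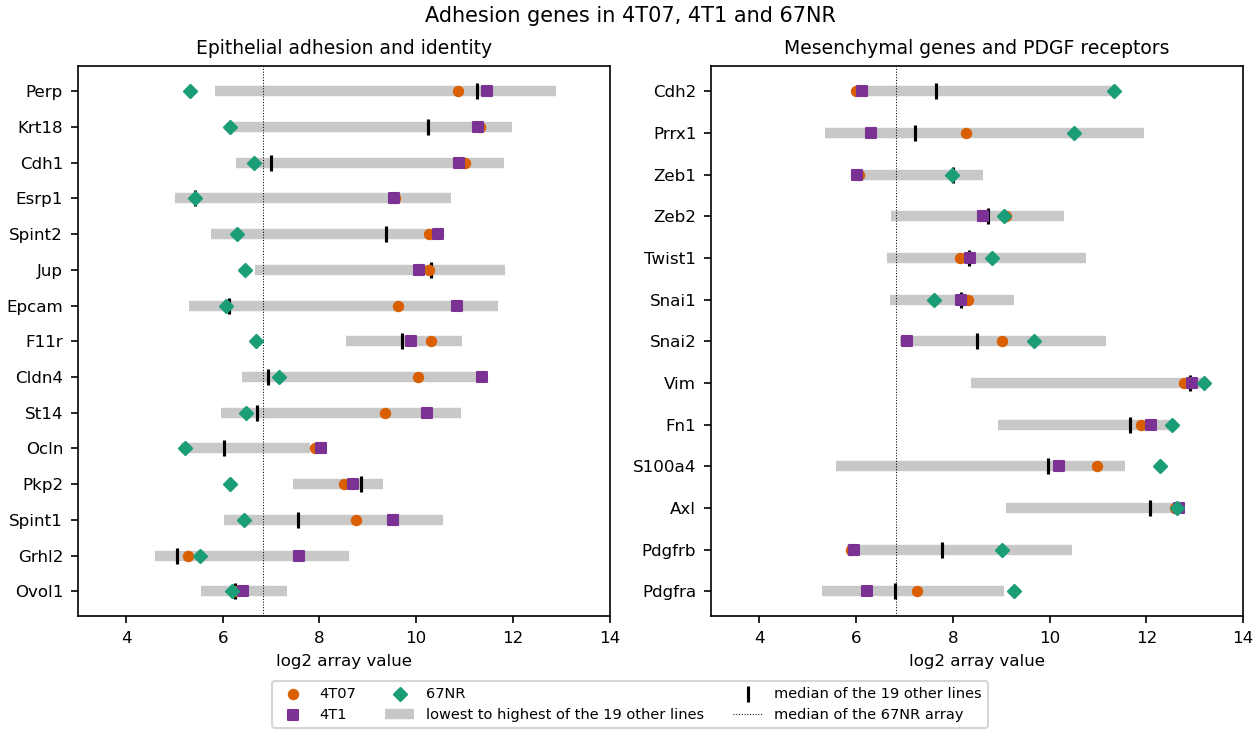
Log2 array values of epithelial genes (left) and mesenchymal and PDGF receptor genes (right) in 4T07, 4T1 and 67NR, with grey bars from the lowest to the highest of the 19 other lines and a tick at their median. Cdh1 sits at 11.02 and 10.88 in the spreading lines against 6.64 in 67NR, Cdh2 at 5.99 and 6.13 against 11.34, and Vim differs little.

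Marker genes of cell types were read across the 3 arrays. Of 9 measured epithelial markers, 7 lay above the array median in 4T07 and 8 in 4T1, against 1 in 67NR. Their mean was 8.89 in 4T07 and 9.55 in 4T1, against 6.27 in 67NR. All 3 means lay within the range of 6.21 to 10.20 of the 19 other lines, 67NR near its lower end. Of 8 mesenchymal markers, 6 lay above the array median in 4T07 and 6 in 4T1, against 8 in 67NR. Of 8 fibroblast markers, 3 lay above it in 4T07 and 2 in 4T1, against 4 in 67NR, and their mean was 6.08 in 4T07 and 6.08 in 4T1, against 7.02 in 67NR, within the range of 5.93 to 8.21 of the 19 other lines. Of these, the collagen gene Col1a1 read 7.33 in 4T07 and 7.49 in 4T1, against 7.68 in 67NR, and the proteoglycan gene Dcn was under the array median on all 3 arrays. The part of other cells in the differences was not tested. Of 6 immune markers 1 lay above the median in each line, of 4 endothelial markers 0 did, and of 4 adipocyte markers 1 did. In longer lists, 0 of 10 immune, 0 of 8 endothelial and 0 of 5 adipocyte genes met the rule in either direction. In a bulk RNA sample, fewer cells of a type and less RNA per cell cannot be told apart.

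Surface and matrix genes on the 67NR side included several that are known from mesenchymal cells. Cd34, a surface sialomucin of progenitor and stromal cells, had the largest shared difference of all lower genes, with 5.53 in 4T07 and 5.67 in 4T1, against 11.83 in 67NR. The 19 other lines had a median of 5.78 and a maximum of 10.78, so 67NR held the highest value of the series. Pdpn, the mucin-type membrane protein podoplanin, read 6.48 in 4T07 and 6.84 in 4T1, against 12.65 in 67NR, again above every other line (highest 11.06). The PDGF receptors were lower in the spreading lines. Pdgfrb read 5.90 in 4T07 and 5.95 in 4T1, against 9.01 in 67NR, and Pdgfra, just inside the threshold, read 7.25 in 4T07 and 6.22 in 4T1, against 9.27 in 67NR. Fgf10, a fibroblast growth factor of mammary mesenchyme, read 4.82 in 4T07 and 5.06 in 4T1, against 7.34 in 67NR, and no other line exceeded 6.15. With the floor its smaller difference was -0.50, short of the rule.

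Among 34 measured genes of fibrillar collagens and matrix, only Fbln1 met the rule, as lower (2.94%, against 0.707% of all genes). Fbln1, which encodes the matrix glycoprotein fibulin-1, read 6.40 in 4T07 and 6.68 in 4T1, against 9.90 in 67NR. The contractile list had 0 of 14 genes past the rule in either direction and the list of matrix crosslinking enzymes 0 of 12. Of 29 surface adhesion genes, 2 were higher (6.90%, against 1.02% of all genes) and 2 lower (6.90%, against 0.707%). Podxl, a sialomucin related to Cd34, read 10.31 in 4T07 and 9.78 in 4T1, against 6.06 in 67NR, so these related genes had opposite directions. Vcam1 read 7.24 in 4T07 and 7.90 in 4T1, against 5.16 in 67NR, a call lost with the floor (0.414), and the heparan sulfate proteoglycan gene Sdc3 read 7.86 in 4T07 and 7.97 in 4T1, against 10.03 in 67NR.

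Proteases, integrins and cytokines have known parts in invasion and in the signals between tumour and host. Of 33 proteases and inhibitors, 3 were higher (9.09%, against 1.02% of all genes) and 0 lower (against 0.707%). Plau, the urokinase that activates plasminogen, read 10.02 in 4T07 and 10.26 in 4T1, against 5.24 in 67NR, below the lowest of the 19 other lines (5.63). Mmp3, the matrix protease stromelysin-1, read 10.24 in 4T07 and 9.47 in 4T1, against 7.01 in 67NR. Both spreading lines exceeded the 19 others for Mmp3 (highest 9.12), and 67NR at 7.01 was itself above the middle of those lines (5.41). Serpinb5, the serpin maspin, read 7.88 in 4T07 and 7.71 in 4T1, against 5.61 in 67NR, and met the rule no longer with the floor (0.878).

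Of 21 integrin and laminin genes, 2 were higher (9.52%, against 1.02% of all genes) and 0 lower. Itga2, the collagen-binding alpha subunit, read 10.39 in 4T07 and 11.22 in 4T1, against 5.63 in 67NR, and the highest of the 19 others read 10.20. Itgb4, the hemidesmosome subunit, read 9.73 in 4T07 and 9.49 in 4T1, against 7.35 in 67NR. Tns4, a member of the tensin family, read 10.90 in 4T07 and 11.26 in 4T1, against 6.35 in 67NR.

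Of 40 chemokines and cytokines, 3 were higher (7.50%, against 1.02% of all genes) and 0 lower (against 0.707%). Tslp, an epithelial cytokine that acts on dendritic and myeloid cells, read 10.28 in 4T07 and 8.09 in 4T1, against 4.18 in 67NR. The other 19 lines lay between 4.13 and 5.17, so within the series a Tslp value above the array median was seen in 4T07 and 4T1 and in 0 of the 19 other lines. With 67NR raised to its array median, the smaller Tslp difference was 1.26, and the gene no longer met the rule. Cxcl16, a membrane-bound chemokine, read 9.90 in 4T07 and 10.92 in 4T1, against 5.74 in 67NR. Lcn2, the iron-siderophore carrier lipocalin 2, read 8.96 in 4T07 and 11.27 in 4T1, against 6.40 in 67NR. Of 20 cytokine and chemokine receptors, 1 was higher (5%, against 1.02% of all genes) and 1 lower (5%, against 0.707%). Il13ra1 was the higher gene (8.96 in 4T07 and 9.62 in 4T1, against 6.22 in 67NR). Tnfrsf9 was the lower gene (7.70 in 4T07 and 6.20 in 4T1, against 9.75 in 67NR). The interferon response list had 0 of 20 genes past the rule and antigen presentation 0 of 14.

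Signalling ligands and receptors met the rule singly. Tgfa, a ligand of the EGF receptor, read 10.31 in 4T07 and 10.13 in 4T1, against 6.94 in 67NR, and it was the 1 gene among the 151 for which 67NR lay below and both spreading lines lay above all 19 others (7.14 to 9.93). It was the only higher gene of 58 growth factor ligands and receptors (1.72%, against 1.02% of all genes), of which 3 were lower (5.17%, against 0.707%). In the Wnt list, 3 of 47 genes were higher (6.38%, against 1.02% of all genes) and 0 lower, namely the receptor Fzd6 (8.99 in 4T07 and 9.78 in 4T1, against 5.59 in 67NR), the ligand Wnt7b (9.34 and 8.99, against 6.74) and the secreted antagonist Sfrp1 (9.06 and 9.74, against 6.81). Of 49 Notch and axon guidance genes, 1 was higher (2.04%, against 1.02% of all genes) and 1 lower (2.04%, against 0.707%). The higher gene was Efnb2, the ligand ephrin-B2, with 9.47 in 4T07 and 9.38 in 4T1, against 5.85 in 67NR. The lower gene was Sema5a, a guidance cue, with 8.25 in 4T07 and 7.61 in 4T1, against 11.07 in 67NR. Of 40 TGF-beta and BMP genes, only Bmp1, a procollagen-processing protease, met the rule, as higher (2.5%, against 1.02% of all genes). It read 11.34 in 4T07 and 11.24 in 4T1, against 9.20 in 67NR. Among 65 homeobox and developmental factors, Ebf1 alone met the rule, as lower (1.54%, against 0.707% of all genes). It read 5.45 in 4T07 and 5.54 in 4T1, against 7.60 in 67NR, and did not meet the rule with the floor (-0.77).

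**Figure D3:**
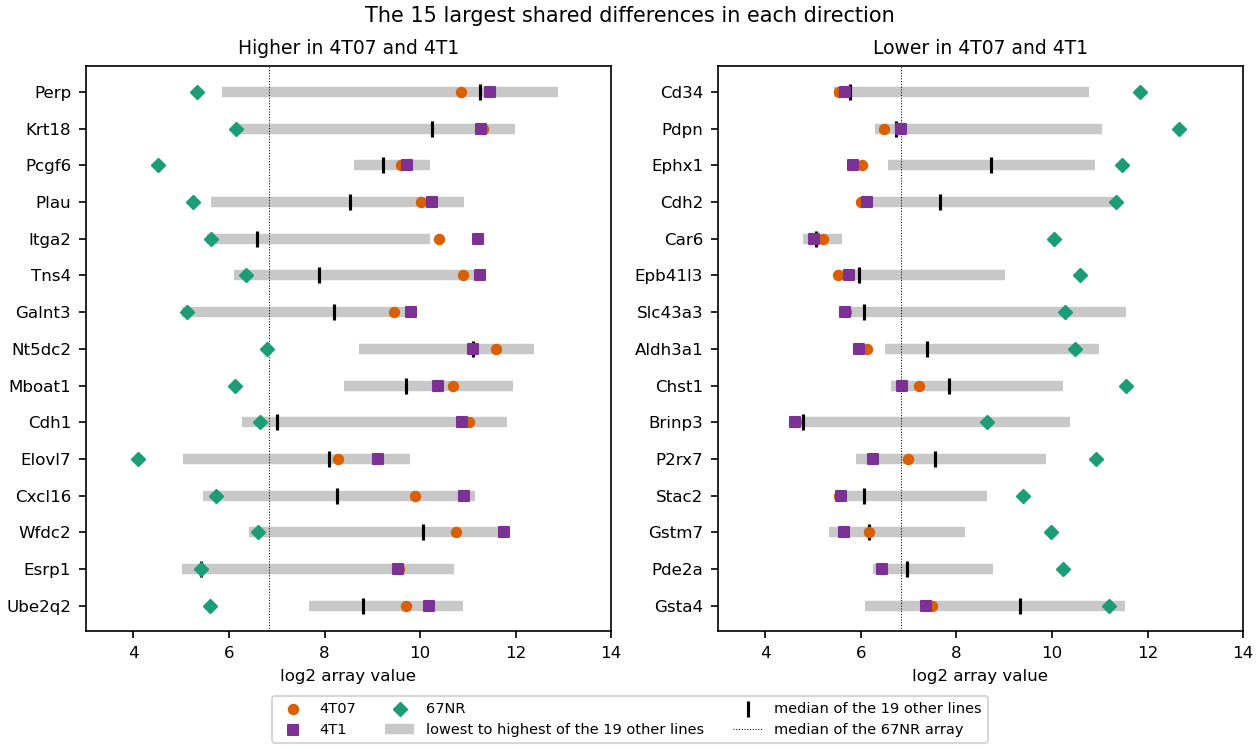
Log2 array values of the 15 genes with the largest shared difference in each direction, in 4T07, 4T1 and 67NR, with grey bars from the lowest to the highest of the 19 other lines, a tick at their median and a dotted line at the 67NR array median of 6.83. Pcgf6 in 67NR (4.51) lies far below the other lines (8.61 to 10.21), and Car6 in 67NR (10.05) far above them (4.79 to 5.61).

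The 19 lines outside the family took no part in the rule and show on which side a gene departs from the other mammary lines. At 59 of the 151 higher genes all 19 lay above their array median, a share (39.1%) close to that of all genes (37.7%). At 54 of these 59 the 67NR value was below all 19. Over the 151 genes, 67NR lay below all 19 at 76 (50.3%, against 6.74% of all genes), and both spreading lines lay above all 19 at 11 (7.28%, against 0.659%). The rule had already picked low 67NR values and high values in the spreading lines, so these counts describe the genes and test nothing.

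Pcgf6, a Polycomb group protein, shows the first kind. It read 9.61 in 4T07 and 9.73 in 4T1, against 4.51 in 67NR, and the other 19 lines were all between 8.61 and 10.21. Nt5dc2 (11.60 in 4T07 and 11.10 in 4T1, against 6.79 in 67NR), Mboat1, a lysophospholipid acyltransferase (10.68 and 10.38, against 6.12), and the ubiquitin-conjugating enzyme gene Ube2q2 (9.70 and 10.19, against 5.59) had the same form. In each case 67NR alone of the 22 lines lay under its array median. The mitotic checkpoint kinase gene Bub1 read 9.78 in 4T07 and 9.83 in 4T1, against 7.08 in 67NR and 8.13 in the lowest other line. It was the only gene of 32 in the cell cycle list to meet the rule (3.12%, against 1.02% of all genes). Among 14830 genes with a position in RefSeq, 3 pairs of next neighbours met the rule in the same direction, which were Lad1 with Tnnt2, Tmem176b with Tmem176a, and Gm5617 with Nnmt. The number of pairs that the shares of called genes alone would give was not worked out, so this count shows neither scarcity nor clustering.

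The same positions were read for the lower genes. At 72 of the 105 (68.6%, against 8.88% of all genes) 67NR lay above all 19 other lines, and at 8 (7.62%, against 0.760%) both spreading lines lay below all 19. At 23 of the 105 (21.9%, against 40.1% of all genes) 2 or fewer of the 19 other lines were above their array median, and at 14 of these none was. Car6, a secreted carbonic anhydrase, read 5.20 in 4T07 and 5.01 in 4T1, against 10.05 in 67NR, with the 19 others between 4.79 and 5.61. Dppa2, a factor of pluripotent cells, read 3.41 in 4T07 and 3.64 in 4T1, against 7.34 in 67NR, and the highest other line read 4.89. Its 67NR value was close to the array median of 6.83, so Dppa2 does not meet the rule with the floor. Ephx1, Alox5ap, Armcx2 and Adh7 were the 4 genes at which 67NR lay above all 19 and both spreading lines lay below all 19.

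**Figure D4:**
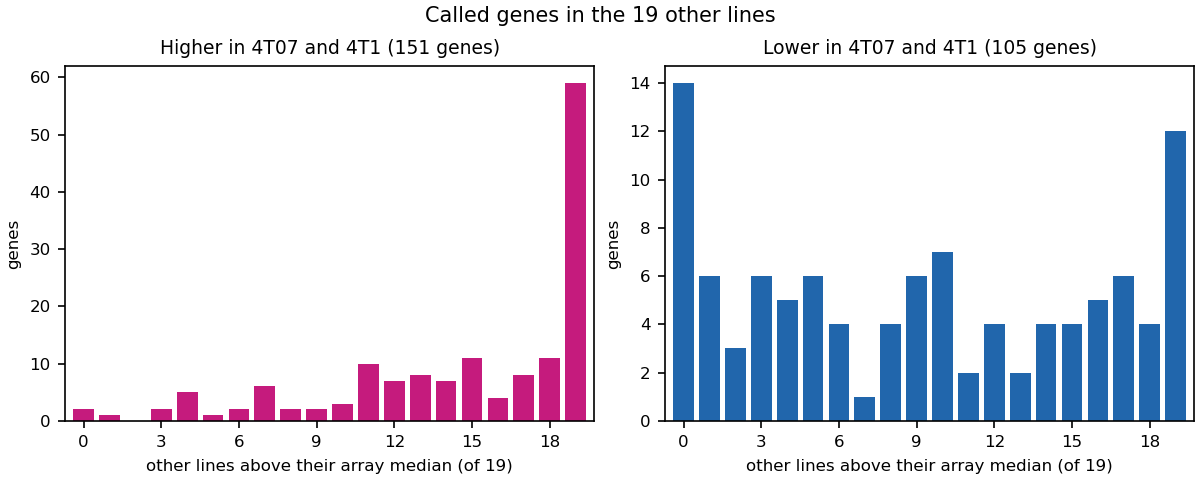
Number of genes (vertical axis) by how many of the 19 other lines had a value above their own array median (horizontal axis), for the 151 genes higher in 4T07 and 4T1 (left) and the 105 lower genes (right). The left panel peaks at 19 lines with 59 genes (39.1%), close to the share of all genes above the median in all 19 (37.7%). The right panel spreads from 14 genes at 0 lines to 12 genes at 19 lines (11.4%).

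Genes of a detoxification list were among the lower genes. Of 37 measured genes of this list, 5 met the rule as lower (13.5%, against 0.707% of all genes) and 0 as higher, and 31 of the 37 were below 67NR in both spreading lines, as 55.5% of all genes were. The list's median difference was -0.48 log2 units in 4T07 and -0.77 in 4T1. Of the 5 genes, Aldh1l2 is a mitochondrial folate enzyme and is counted again in the stress list below. Ephx1, which hydrolyses epoxides, read 6.01 in 4T07 and 5.84 in 4T1, against 11.47 in 67NR. Aldh3a1, an aldehyde dehydrogenase, read 6.12 in 4T07 and 5.97 in 4T1, against 10.47 in 67NR. For both enzymes the spreading lines lay under the lowest of the 19 others (6.57 for Ephx1 and 6.51 for Aldh3a1).

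The glutathione transferase Gsta4 read 7.48 in 4T07 and 7.37 in 4T1, against 11.20 in 67NR, and Gstt1 read 6.71 and 6.80 in 4T07 and 4T1, against 10.25 in 67NR. Gstm7, a further glutathione transferase outside the list, read 6.17 in 4T07 and 5.64 in 4T1, against 9.97 in 67NR. Srxn1 and Nqo1, known as targets of the oxidative stress factor Nrf2, did not reach the rule, with Srxn1 at 8.84 in 4T07 and 8.55 in 4T1, against 10.44 in 67NR, and Nqo1 at 7.97 and 5.90, against 7.40.

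Some genes of the stress circuit around Atf4 were among the lower genes. The list was put together after several of its members had been seen, so its counts are not independent of the data. Of 37 measured genes, 6 met the rule as lower (16.2%, against 0.707% of all genes) and 0 as higher, and 32 of the 37 were below 67NR in both lines, as 55.5% of all genes were. The median difference was -0.78 log2 units in 4T07 and -0.90 in 4T1. At 26 of the 37 genes 67NR was above all 19 other lines, which was so for 8.88% of all genes.

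Atf4 itself read 10.38 in 4T07 and 10.01 in 4T1, against 11.48 in 67NR, and the other 19 lines were between 9.65 and 10.59. Ddit3, which encodes the stress factor CHOP, read 6.73 in 4T07 and 6.31 in 4T1, against 9.62 in 67NR, with 7.25 as the highest other value. Trib3, a pseudokinase induced by Atf4 and CHOP, read 7.38 in 4T07 and 7.02 in 4T1, against 9.98 in 67NR, with 7.76 as the highest other value. For all 3 genes the spreading lines lay within the range of the other lines and 67NR stood above it. Chac1, a glutathione-degrading enzyme, read 8.81 in 4T07 and 8.95 in 4T1, against 11.28 in 67NR. Sesn2, an inhibitor of mTORC1 signalling, read 6.58 in 4T07 and 6.29 in 4T1, against 9.63 in 67NR. Aldh1l2, a mitochondrial folate enzyme, read 7.97 in 4T07 and 5.63 in 4T1, against 10.70 in 67NR, and Ddit4, another inhibitor of mTORC1, read 8.33 and 8.11 in 4T07 and 4T1, against 10.48 in 67NR.

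Members of the list that supply amino acids included 3 with smaller differences, picked here as examples. Asns, asparagine synthetase, read 11.32 in 4T07 and 11.30 in 4T1, against 12.21 in 67NR. The amino acid transporter gene Slc3a2 read 12.10 in 4T07 and 12.21 in 4T1, against 12.88 in 67NR, and the cysteinyl-tRNA synthetase gene Cars read 9.45 and 9.49 in 4T07 and 4T1, against 10.69 in 67NR. None of these 3 met the rule, and in each the 67NR value was the highest of the 22 lines. The list was not uniform. The chaperone gene Hspa5 of the endoplasmic reticulum read 12.27 in 4T07 and 11.96 in 4T1, against 11.86 in 67NR, Dnajb9 read 8.89 and 8.99, against 8.35, and Atf3 read 7.34 and 7.91, against 6.32.

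The upstream 250 bases of Chac1 are shown as the 1 promoter of this group with the letters TGATGNAA, the core of the element that Atf4 binds with C/EBP factors. It lies at chr2:119350992-119351241 on the plus strand of GRCm38.p6 (RefSeq), and the capitals mark the match, which is on the opposite strand and reads TTNCATCA here.
Chac1: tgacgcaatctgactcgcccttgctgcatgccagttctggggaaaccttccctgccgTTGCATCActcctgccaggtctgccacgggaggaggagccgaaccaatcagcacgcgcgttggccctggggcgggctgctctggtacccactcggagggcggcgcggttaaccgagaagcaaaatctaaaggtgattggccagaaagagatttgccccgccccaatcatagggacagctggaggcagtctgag
Of the 6 genes of the group that met the rule, 5 were matched to a promoter and 1 held the letters, beside 3.53% of all 27025 promoters. The match starts 193 bases before the start site.

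**Figure D5:**
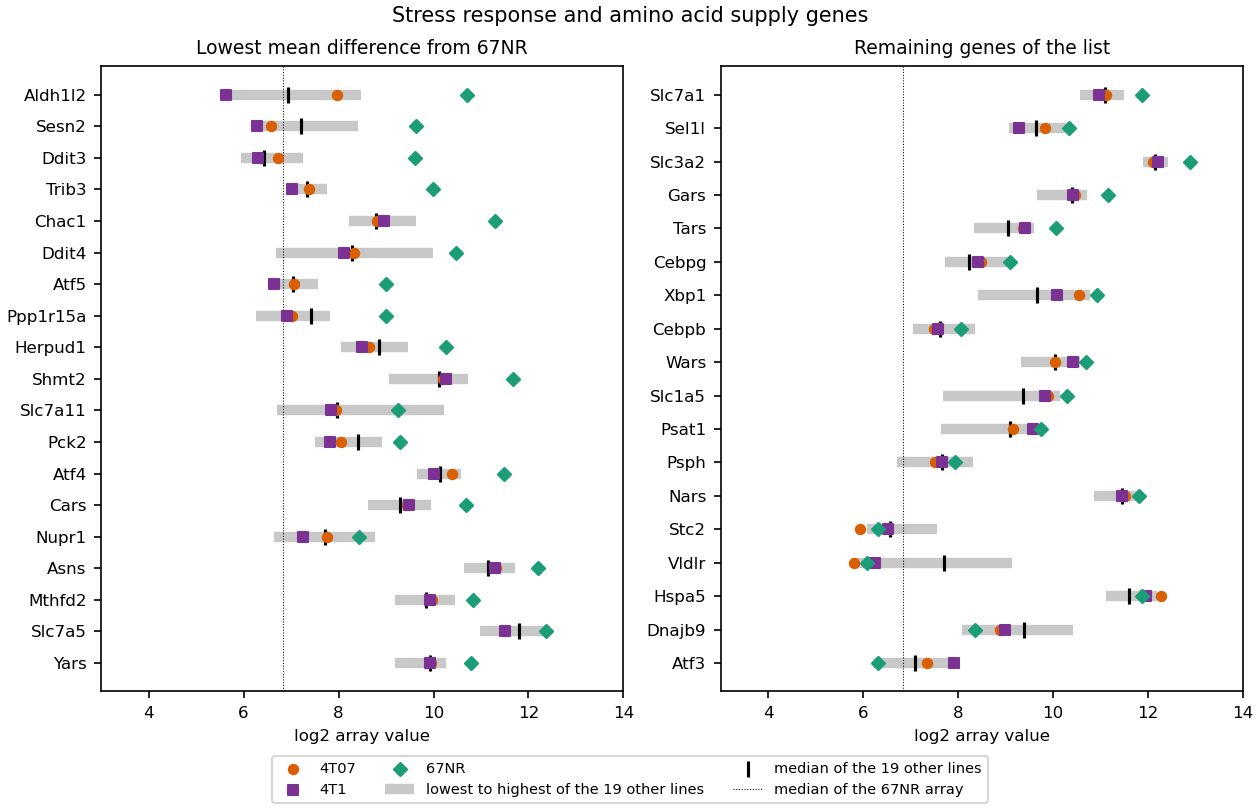
Log2 array values of 37 stress response and amino acid supply genes in 4T07, 4T1 and 67NR, ordered by their mean difference from 67NR, with grey bars from the lowest to the highest of the 19 other lines and a tick at their median. 67NR lies above every other line at 26 of the 37 genes, among them Ddit3 (9.62) and Atf4 (11.48), and below both spreading lines for Hspa5, Dnajb9 and Atf3.

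Of 24 hypoxia and glycolysis genes, 1 was higher (4.17%, against 1.02% of all genes) and 2 were lower (8.33%, against 0.707%). Car12, a membrane carbonic anhydrase, read 9.87 in 4T07 and 9.41 in 4T1, against 6.16 in 67NR, while Ndrg1 read 10.08 in 4T07 and 9.82 in 4T1, against 12.27 in 67NR, and Ddit4 was lower as given above. Of 23 S100 and annexin genes, 0 met the rule. The metastasis-associated calcium-binding protein gene S100a4 read 10.99 in 4T07 and 10.19 in 4T1, against 12.28 in 67NR, so it was highest in the line that does not spread, above the other 19 lines as well (highest 11.56).

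Since the 3 lines carry drug selections, genes of purine salvage and of the sodium pump were read as a list. Hprt, whose enzyme converts thioguanine to its toxic form, read 9.21 in 4T07 and 8.92 in 4T1, against 8.70 in 67NR, and the 19 other lines ran from 7.78 to 9.96. No loss of Hprt RNA was seen in the thioguanine-resistant lines, which says nothing about the enzyme. Of the 13 measured genes, 1 was higher (7.69%, against 1.02% of all genes) and 1 lower (7.69%, against 0.707%). Nt5e, the ectonucleotidase that makes adenosine, was the higher gene (9.77 in 4T07 and 10.42 in 4T1, against 6.07 in 67NR). Xdh, xanthine dehydrogenase, was the lower gene (9.17 in 4T07 and 7.40 in 4T1, against 11.32 in 67NR). The sodium pump subunit gene Atp1b1 read 7.78 in 4T07 and 9.0 in 4T1, against 5.94 in 67NR, which missed the rule in 4T07.

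2 other pairs of related lines were set beside these genes, without samples in common. M6C was derived from a lung metastasis of M6, and D2A1 and D20R come from a D2 nodule line, with labels that do not say which of them spreads more. Of the 151 genes higher in 4T07 and 4T1, 5 were at least 1 log2 unit higher in M6C than in M6 (3.31%, against 1.08% of all genes) and 2 were at least 1 lower (1.32%, against 0.471%). Of the 105 lower genes, 10 were at least 1 higher in M6C (9.52%, against 1.08%) and 2 at least 1 lower (1.90%, against 0.471%). Over all genes this pair is itself uneven, with 161 at least 1 higher in M6C and 70 at least 1 lower. The 12 lower genes that moved were likewise mostly higher in M6C, with Pmp22 at 1.86 and Sod3 at 1.76 in M6C minus M6. Cdh2 differed by -1.32 there. Between D2A1 and D20R, 14 of the 151 were at least 1 higher in D2A1 (9.27%, against 2.15% of all genes) and 20 at least 1 lower (13.2%, against 2.19%), while of the 105 lower genes 9 were higher (8.57%) and 15 lower (14.3%). The medians over the 151 genes were 0.06 for M6C minus M6 and -0.06 for D2A1 minus D20R.

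Among the 5 other spontaneous tumour lines (D2A1, D20R, EMT6, F311 and TSA), all 5 lay on the side of 4T07 and 4T1, judged by the midpoint between them and 67NR, at 50 of the 151 higher genes (33.1%, against 20.8% of all genes above 67NR in both lines) and 55 of the 105 lower genes (52.4%, against 13.9% of all genes below 67NR in both). All 5 lay on the side of 67NR at 5 higher genes (3.31%, against 4.69%) and 1 lower gene (0.952%, against 5.98%). The rule picked genes with large differences, so these shares describe the genes and test nothing. For Cdh1, 4 of the 5 were on the 67NR side, with F311 at 10.51 the exception. For Cdh2, 4 of the 5 were on the side of the spreading lines, with TSA at 10.28 the exception. In D2A1 (6.41 for Cdh1 and 5.95 for Cdh2) and EMT6 (6.66 and 6.26) both cadherin genes were below every array median of the series, the lowest of which was 6.78, while D20R read 7.30 for Cdh1 and 6.26 for Cdh2.

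Around the threshold of 2 log2 units, Vamp7 (2.11 in 4T07 and 2.01 in 4T1) and Echdc2 (2.0 and 3.26) were just inside on the higher side, and Cldn3 and Adgrl2 (1.99 and 3.16) just outside. On the lower side, Pdgfra (-2.01 and -3.05) and Ascc1 (-2.03 and -2.01) were just inside, and Abca1 (-1.99 and -2.34) and Lrrk2 (-1.99 and -2.12) just outside. Of the called genes, 3 had a second probe set. For Creb1 it differed by 1.06 in 4T07 and 1.63 in 4T1, and for Taok1 by 1.32 and 2.04, the same direction as the probe set used. For Myef2 the second probe set was low on all 3 arrays and differed by -0.08 in 4T07 and 0.42 in 4T1.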

How the data were processed

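Total RNA of each line was labelled with biotin and hybridised to 1 exon array, per the labels' protocols. The deposited table gives 1 value per entry and array, taken as log2 from its range of 2.74 to 13.9, since neither file header nor labels state the scale. The submitters' processing notes name GCOS and the build mm9. Neither labels nor headers describe background correction or normalization, and the extraction protocol speaks of tumour samples although the samples are cell lines.

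Of 23332 entries, 16755 are numbered as transcript clusters. Of these, 14996 had 1 gene symbol, 1019 several and 740 none, and 14941 matched RefSeq gene identifiers. The probe set with the highest mean over 22 arrays stood for a gene, which left 14860 genes. A gene was called at 2 log2 units or more in both lines with the higher value above its array's median. The code of this step was tried on simulated shifts larger than the threshold, in genes above the array medians. That trial does not bear on differences near the threshold or on values under the median. Genes were named by rule: the 15 largest smaller-of-2 differences per direction without predicted genes, list members that met the rule, up to 2 members of a list that did not, the 2 nearest the threshold on each side, and the selection genes. Other genes (the Zeb, Snail and Twist repressors, Vim, Fn1, S100a4, genes set against the 19 other lines, and the Atf4 list with its members) were chosen after their values were seen. The members and 25 gene lists were chosen with earlier results of these data known. Calculations used Python 3.11.15, numpy 2.4.6 and pandas 2.3.3. The number of arrays limits the precision.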

Additional observations from a re-analysis of the deposited data

Results flagged for a closer look

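Among the 5 spontaneous tumour lines outside the family (D2A1, D20R, EMT6, F311 and TSA), 30 of the named genes were examined for 1 line far from the other 4, and 7 had one. Chance marks about 1 in 20 independent groups of replicates, a rate that does not carry over here, since these are different lines and the genes were chosen together. F311 was the high line for 4 of them. It read 10.02 for Itga2 (5.54 to 6.02 in the other 4), 9.65 for Tns4 (6.37 to 6.70), 10.51 for Cdh1 (6.41 to 7.30) and 8.72 for Esrp1 (5.06 to 5.55), and for each of these genes 4T07 and 4T1 were also high. EMT6 read 11.06 for Pdpn (6.30 to 7.35 in the other 4). TSA read 10.28 for Cdh2 (5.95 to 6.79) and 7.96 for Epb41l3 (5.50 to 6.20), both genes that were lower in 4T07 and 4T1 than in 67NR.

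Entries of the array that were not counted as genes also passed the rule. Of 1019 transcript clusters with several symbols, 8 did (0.785%), with 4 higher and 4 lower. The largest was the entry shared by Cd24a, a surface glycoprotein gene, and Gm6212, which read 11.76 in 4T07 and 12.35 in 4T1, against 4.36 in 67NR. The entry shared by the keratin genes Krt7 and Krt86 read 8.81 in 4T07 and 9.45 in 4T1, against 6.60 in 67NR. Of 740 clusters with no symbol, 17 passed (2.30%), with 13 higher and 4 lower. Of 6577 entries not numbered as transcript clusters, 22 passed (0.334%), with 21 higher and 1 lower.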

How the results depend on the processing

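No paired analysis was possible because each line has 1 array and the labels give no replicate that links lines. Against 151 higher and 105 lower genes, counts moved by more than 1.5 times with a floor at the array median (95 higher and 69 lower), with a threshold of 1 log2 unit (682 and 440) and with a threshold of 3 log2 units (51 and 38). Leaving out 4T07 or 4T1 in turn gave 190 to 257 higher and 131 to 195 lower genes, and the run without 4T07 (257 and 195) also moved both counts by more than 1.5 times. Quantile normalization, centring, equal SDs, no filter, averaging probe sets and taking every entry kept both counts within 1.5 times. Among the 92 named genes, a change of direction was looked for only in those that met the rule, and 0 had one. Differences of at least 2 log2 units could hardly change direction under these settings, so this 0 is no sign of stability. The floor took 12 below the rule (Elovl7, Brinp3, Ocln, Pkp2, Spint1, Serpinb5, Vcam1, Tslp, Fgf10, Ebf1, Vamp7 and Echdc2), quantile normalization 6 (Sdc3, Pdgfra, Ebf1, Vamp7, Echdc2 and Ascc1), equal SDs 4 (Bmp1, Vamp7, Echdc2 and Ascc1) and the 3-unit threshold 32. Leaving out 67NR leaves no comparison.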
